A study of Mus musculus with 8 samples.

Results

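Pancreatic β cells, the insulin-producing cells of the islet, are kept in their state by a small set of transcription factors, and 9 of these were followed here: Pdx1, Mafa, Nkx6-1, Nkx2-2, Neurod1, Isl1, Pax6, Foxa2 and Rfx6. They were chosen by name, with earlier results of these data known, and all 9 are among the 27534 genes listed and the 15442 genes tested. The islets came from C57BL/6J mice and the labels name no genetic change. Both groups were kept for 72 h in RPMI 1640 with serum, the glucose being 20 mM in one (called high glucose) and 7.5 mM in the other (low glucose), and each gave 4 libraries of bulk RNA sequencing. The labels do not say whether libraries came from separate animals or pools, so p-values measure the spread between these libraries, which may be technical.

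The factors act as a network that binds its own members' genes and those for insulin, glucose uptake and secretion. PDX1, NKX6-1, NKX2-2, ISL1 and PAX6 carry homeodomains, most of which recognise a TAAT core, whereas NEUROD1 is a basic helix-loop-helix factor that binds E-boxes of the form CANNTG. MAFA is a basic leucine zipper factor, FOXA2 a forkhead factor and RFX6 a winged-helix factor. PDX1, NEUROD1 and MAFA bind the insulin promoter itself, and Mafa switches on late, as β cells mature. ISL1, PAX6, NEUROD1 and RFX6 also serve the other endocrine cells of the islet, so in bulk RNA part of their signal comes from those cells.

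In high glucose, Rfx6, Mafa and Isl1 fell, while no factor rose. Rfx6 fell by 31.2% and Mafa fell by 27.7%, both without overlap between the groups, while Isl1 fell by 18.7% with overlap. Pdx1 and Nkx2-2 differed by less than the spread between libraries. Of the 9 factors, 3 were lower with edgeR, whereas 11.9% of all genes tested were lower and 13.1% higher. Among the 960 tested genes that the authors' table assigns to a transcription factor family, 16.4% were lower and 7.08% higher. With the replicate number as a block, 5 of the 9 were lower, Pax6 and Neurod1 being the additional ones, against 18.5% of all genes lower and 18.9% higher. With library size alone as scaling 6 were lower, against 17.1% lower and 10.4% higher. Fewer cells of a type and less RNA per cell cannot be told apart in bulk samples.

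The count of 3 lower factors was read against each alternative's own background. It was 3 with DESeq2 size factors in edgeR (11.5% of genes lower, 13.4% higher), with Ins1 and Ins2 left out before scaling (12.2% and 12.8%), with no filter on low counts (5.63% and 6.72%) and with limma-voom (11.8% and 13.4%). It was 4 with DESeq2 (11.6% and 13.3%) and 2 with the acinar markers as a covariate (10.0% and 12.3%). Leaving out high glucose replicates 1, 2, 3 and 4 in turn gave 2, 3, 2 and 2 lower factors, against 8.82%, 9.57%, 9.14% and 8.87% of genes lower and 10.5%, 11.0%, 10.7% and 10.6% higher. Leaving out low glucose replicates 1 to 4 in turn gave 2, 4, 3 and 3, against 8.93%, 15.6%, 8.77% and 8.90% lower and 10.3%, 16.8%, 10.4% and 10.2% higher. Without overlap between the groups, 2 of the 9 were lower, where 13.6% of all genes were lower and 13.7% higher. No factor was higher in any of these fits, nor at an unadjusted p under 0.05.

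Promoter windows were read from RefSeq (GRCm38.p6, 250 bases before to 50 after a start) to show the sequence context of factors that fell and of those that did not. Of the 9 factors, 8 matched by symbol, with 11 windows in all, and Mafa was not among them. Shown are Rfx6 and Isl1, which fell, and Pdx1 and Nkx2-2, which had the smallest differences, each 5′ to 3′ on its own strand. Capitals mark matches to TAAT or CANNTG on either strand, and adjoining matches run together.
Rfx6, chr10:51685268-51685567, plus strand: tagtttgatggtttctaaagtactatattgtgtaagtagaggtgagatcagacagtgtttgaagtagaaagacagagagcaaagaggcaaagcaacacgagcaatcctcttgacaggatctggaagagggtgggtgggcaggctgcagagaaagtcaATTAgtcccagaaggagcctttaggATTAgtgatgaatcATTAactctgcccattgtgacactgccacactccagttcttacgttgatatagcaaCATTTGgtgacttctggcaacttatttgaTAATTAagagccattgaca
Isl1, chr13:116309639-116309938, minus strand: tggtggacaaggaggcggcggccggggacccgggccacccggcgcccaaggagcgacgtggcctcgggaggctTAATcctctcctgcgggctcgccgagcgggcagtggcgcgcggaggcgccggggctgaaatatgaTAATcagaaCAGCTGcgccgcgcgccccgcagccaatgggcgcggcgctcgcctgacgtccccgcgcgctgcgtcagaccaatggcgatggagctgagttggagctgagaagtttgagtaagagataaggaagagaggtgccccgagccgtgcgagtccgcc
Pdx1, chr5:147269847-147270146, plus strand: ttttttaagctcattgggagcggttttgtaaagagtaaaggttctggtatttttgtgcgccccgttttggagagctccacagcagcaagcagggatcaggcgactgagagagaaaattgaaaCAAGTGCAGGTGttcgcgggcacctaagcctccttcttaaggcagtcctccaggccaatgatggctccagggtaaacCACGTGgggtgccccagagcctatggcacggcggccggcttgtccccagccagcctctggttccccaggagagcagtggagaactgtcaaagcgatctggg
Nkx2-2, chr2:147186353-147186652, minus strand: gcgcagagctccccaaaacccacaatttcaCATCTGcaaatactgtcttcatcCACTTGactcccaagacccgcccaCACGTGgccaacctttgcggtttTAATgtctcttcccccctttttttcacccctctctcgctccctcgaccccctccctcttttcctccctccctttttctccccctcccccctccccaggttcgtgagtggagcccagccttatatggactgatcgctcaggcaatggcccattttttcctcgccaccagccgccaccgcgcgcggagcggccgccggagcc
The Rfx6 window holds 5 matches to TAAT, counted with overlap on both strands, and 6.86% of the 32851 mouse windows hold as many or more. The Isl1 window holds 2, and 34.1% of windows hold as many or more. The Nkx2-2 window holds 1, as 58.0% of windows hold at least that, and the Pdx1 window holds none. Of the factors not printed, the Pax6 windows hold 2 each, the Foxa2 windows 1, 0 and 2, and the Neurod1 and Nkx6-1 windows none. TAAT was thus found in 7 of the 11 windows of the factors, near its share over all windows. CANNTG was found in 72.3% of all windows and in 7 of the 11 windows of the factors. Its palindrome CACGTG, a subset of those matches, occurs in the Pdx1 and Nkx2-2 windows and in none of the other 9, while 7.15% of all windows hold it. A match describes the letters of a window and shows no binding. The Rfx6 and Nkx2-2 windows lie inside the gene bounds of the deposited table, so they stand for 1 annotated start each.

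Libraries held 19543045 to 24949515 counts, and each factor had 1525 to 38057 counts per library. The first principal component of the 500 most variable genes held 45.0% of their variance and separated the groups. Ins1 and Ins2 together took 17.2% to 22.7% of counts. Summed levels of 6 β-cell markers were 205455 to 271353 CPM (read counts scaled to library size) with high glucose and 184090 to 264225 CPM with low glucose. The 15 acinar markers summed to 4483 to 23589 and 1571 to 13533 CPM, and the 10 fibroblast and stellate markers to 248 to 1432 and 200.3 to 496 CPM. The 8 α-cell markers summed to 13106 to 25760 and 14915 to 29922 CPM, and the 5 δ-cell markers to 2497 to 4174 and 1579 to 3080 CPM. Within every same-number pair, the high glucose library had the larger acinar share of counts. Pancreatic polypeptide cell markers summed to 2855 to 4233 CPM with high and 2992 to 5844 CPM with low glucose, ductal markers to 1052 to 1563 and 874 to 1189 CPM, endothelial markers to 37.9 to 48.9 and 40.3 to 52.4 CPM and macrophage markers to 250.1 to 368 and 289 to 463 CPM. No gene of the acinar, fibroblast, δ-cell, pancreatic polypeptide, endothelial or macrophage lists passed the threshold in edgeR without the block, although at an unadjusted p under 0.05 there were 1 fibroblast, 1 δ-cell and 1 endothelial gene higher and 1 δ-cell gene lower. With the replicate block 9 of 14 tested acinar markers were higher, as were 5 of 9 ductal markers (1 without the block). So were 1 fibroblast marker, 1 δ-cell marker, 2 α-cell markers (also 2 without the block) and 3 β-cell markers (2 without), beside 18.9% of all genes tested. Lower with the block were 2 macrophage markers, 1 δ-cell marker and 2 α-cell markers (1 without the block), beside 18.5% of all genes. Also lower, with and without the block, were 2 β-cell markers and 1 ductal marker. DESeq2 called no gene of the acinar, fibroblast, δ-cell, pancreatic polypeptide, endothelial or macrophage lists, and limma-voom called 1 δ-cell gene higher. No marker was at 0 in all libraries, and the part of these cells in the results below was not tested. The most abundant markers, each with its high and then its low glucose range, were Ins2 (135756 to 189785 and 130960 to 201434 CPM) for β cells, and for α, δ and acinar cells Gcg (11276 to 23393 and 13583 to 28157 CPM), Sst (2378 to 3980.4 and 1447 to 2869 CPM) and Ctrb1 (1803 to 8620.3 and 639 to 4756 CPM).

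Levels of the factors were compared with each other per length, as the authors' FPKM, the count scaled by gene length and by a divisor set per library. Mafa stood far above the rest in both groups, at 424 ± 47.9 FPKM in high and 578 ± 56.0 FPKM in low glucose (mean ± SD, n = 4 here and below). It ranked first among the 1229 genes with a transcription factor family in each of the 8 libraries. Nkx6-1 followed with 156 ± 15.8 and 169.6 ± 9.68 FPKM and ranked between 2 and 4, and Pdx1 with 100.4 ± 10.2 and 94.3 ± 6.62 FPKM ranked between 7 and 10. Neurod1 and Nkx2-2 lay between 50.5 and 69.0 FPKM in every library. Their ranges overlapped in high glucose, although Neurod1 was the higher in 4 of 4 libraries, and were apart in low glucose.

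Foxa2, Isl1, Pax6 and Rfx6 formed the lower end of the order. Foxa2 (37.5 ± 3.00 and 40.9 ± 3.40 FPKM) and Isl1 (32.3 ± 2.17 and 39.2 ± 3.46 FPKM) overlapped in both groups, Foxa2 being the higher in 4 of 4 and 3 of 4 libraries. Pax6 and Rfx6 were level in low glucose, at 29.7 ± 2.74 and 29.6 ± 2.94 FPKM, with Pax6 the higher in 2 of 4 libraries. In high glucose Pax6 lay above Rfx6 in 4 of 4 libraries, at 25.4 ± 1.87 against 20.7 ± 1.48 FPKM, without overlap. Among the factor-family genes Rfx6 ranked 32 to 43 in low and 47 to 63 in high glucose. The listed length of Pax6, 11694 bases, is far above the 2158 to 4010 bases of the other factors, and it lowers the FPKM of Pax6 relative to them.

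**Figure D1:**
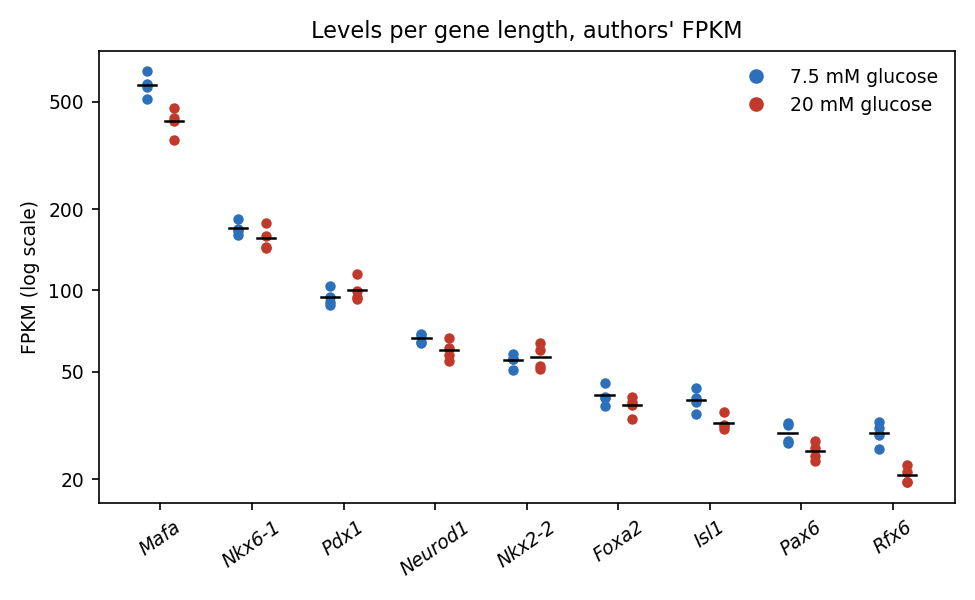
Levels of the 9 factors per gene length as the authors' FPKM on a logarithmic axis; each point is 1 library and each black line a group mean, with low glucose in blue and high glucose in red. Mafa lies above all other factors in both groups, and Pax6 and Rfx6 share a level in low glucose but not in high glucose.

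RFX6 is required for islet endocrine differentiation and later for insulin secretion. Rfx6 (ENSMUSG00000019900, GRCm38 chromosome 10, 51677756 to 51730432) stood at 91.3, 79.2, 85.3 and 78.9 CPM in replicates 1 to 4 of high glucose, against 135, 106, 127 and 118 CPM in those of low glucose. All high glucose libraries lay below all low glucose libraries. The means were 83.7 ± 5.87 and 122 ± 12.3 CPM, giving a log2 difference of -0.54 ± 0.09 (SE; adjusted p = 0.00137, edgeR). Rfx6 was lower in 4 of 4 same-number pairs. Its window with 5 TAAT matches is printed above.

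MAFA activates the insulin gene in mature β cells and sets itself apart from most other islet factors in the mouse by its restriction to β cells. Mafa (ENSMUSG00000047591, chromosome 15, 75745490 to 75748228) stood at 1178, 1214, 1299.95 and 993 CPM with high glucose, against 1441, 1823, 1640 and 1576 CPM with low. The groups did not overlap, and replicate 4 was the lowest high glucose library while replicate 1 was the lowest low glucose library. The means were 1171 ± 129 and 1620.1 ± 159 CPM, giving a log2 difference of -0.47 ± 0.10 (SE; adjusted p = 0.00809, edgeR), and 4 of 4 same-number pairs were lower. Rfx6 and Mafa kept direction and call under all 16 alternatives, with an adjusted p of at most 0.00626 for Rfx6 and 0.0233 for Mafa.

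ISL1 is a LIM-homeodomain factor of all islet endocrine cells. Isl1 (ENSMUSG00000042258, chromosome 13, 116298281 to 116309689) stood at 127, 143, 121 and 126 CPM with high glucose, against 177, 162, 157 and 140.2 CPM with low. High glucose replicate 2 lay above low glucose replicate 4, and otherwise the groups were apart. The means were 129 ± 9.38 and 159 ± 15.1 CPM, giving a log2 difference of -0.30 ± 0.09 (SE; adjusted p = 0.0287, edgeR). Isl1 was lower in 4 of 4 same-number pairs, and its adjusted p was 0.00354 with the replicate block. Leaving out replicate 1, 3 or 4 of high glucose ended the call (adjusted p 0.0649, 0.0841 and 0.0741), as did leaving out replicate 1 of low glucose (0.0868) or taking the acinar markers as a covariate (0.0546).

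PAX6, a paired-domain and homeodomain factor, sustains hormone genes in all islet endocrine cells. Pax6 (ENSMUSG00000027168, chromosome 2, 105668900 to 105697364) stood at 276, 311, 323 and 289 CPM with high glucose, against 389.6, 332, 382 and 321 CPM with low. Only high glucose replicate 3 reached the low glucose range, just above low glucose replicate 4. The means of 299.7 ± 21.0 and 356 ± 34.6 CPM gave a log2 difference of -0.25 ± 0.09 (SE; adjusted p = 0.0663, edgeR), short of the threshold. Pax6 was lower in 4 of 4 same-number pairs and passed with the replicate block (adjusted p = 0.0135), with library size alone (0.0273), with DESeq2 (0.0403) and when low glucose replicate 2 was left out (0.0339).

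NEUROD1 pairs with E proteins at E-boxes of the insulin gene. Neurod1 (ENSMUSG00000034701, chromosome 2, 79452521 to 79456751) stood at 159, 184, 168 and 151 CPM with high glucose, against 192, 181, 193 and 176 CPM with low, with overlap through high glucose replicate 2. Its log2 difference was -0.17 ± 0.08 (SE; adjusted p = 0.151, edgeR), and it was lower in 3 of 4 same-number pairs. It passed with the replicate block (adjusted p = 0.0439) and with library size alone (0.0355).

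FOXA2 opens chromatin ahead of other factors and acts upstream of Pdx1, and NKX6-1 represses the programmes of other endocrine cells while supporting insulin secretion. Foxa2 (ENSMUSG00000037025, chromosome 2, 148042877 to 148046969) spanned 79.7 to 97.2 CPM in high and 91.3 to 111 CPM in low glucose. Nkx6-1 (ENSMUSG00000035187, chromosome 5, 101658139 to 101664996) spanned 453 to 555 and 517 to 589.7 CPM. Both overlapped between groups, though each was lower in high glucose in 4 of 4 same-number pairs. Their log2 fold changes were -0.15 and -0.14, with 95% intervals of -0.33 to 0.04 and -0.33 to 0.05, and adjusted p = 0.249 and 0.275 in edgeR. With the replicate block the adjusted p was 0.0767 and 0.0564, and Foxa2 passed with library size alone (0.0331).

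PDX1 directs pancreas formation and later the insulin and glucose-sensing genes, and NKX2-2 represses α-cell genes in β cells. Pdx1 (ENSMUSG00000029644, chromosome 5, 147269959 to 147275848) stood at 218, 206, 248 and 202 CPM with high glucose, against 210.4, 196, 229 and 198 CPM with low. It was lower in high glucose in 0 of 4 same-number pairs, and the group ranges largely coincided. Nkx2-2 (ENSMUSG00000027434, chromosome 2, 147177546 to 147194243) stood at 153, 186, 173 and 148 CPM with high glucose, against 149.5, 165, 171 and 162 CPM with low, again with overlap. The log2 fold changes were 0.069 for Pdx1 (95% interval -0.12 to 0.26, adjusted p = 0.611 in edgeR) and 0.027 for Nkx2-2 (-0.17 to 0.22, adjusted p = 0.852). With library size alone both signs turned, to -0.015 and -0.056, and Nkx2-2 also turned when replicate 2 of high glucose (-0.034) or replicate 1 of low glucose (-0.011) was left out.

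**Figure D2:**
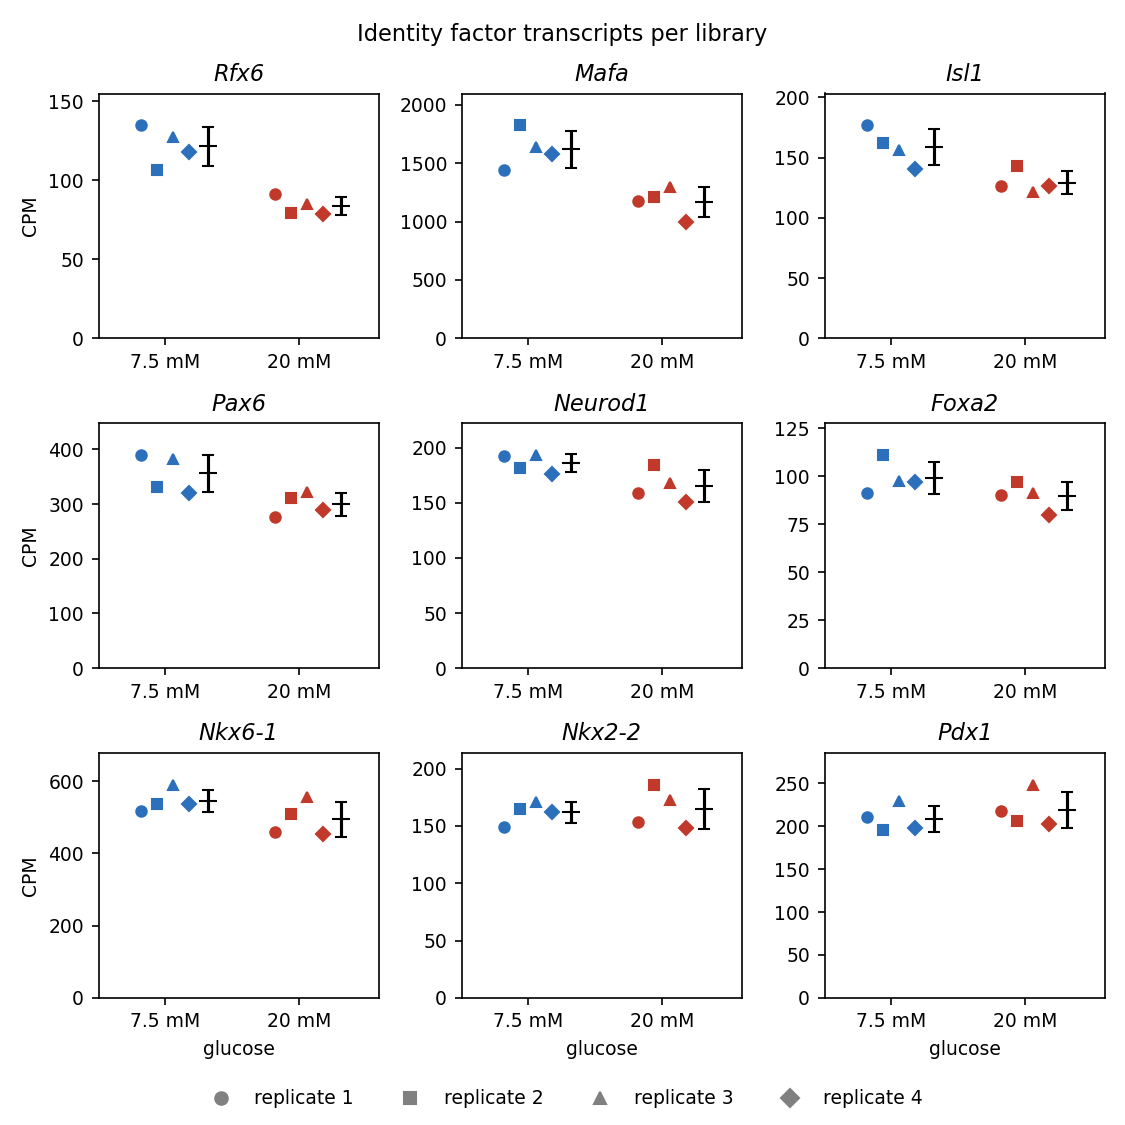
CPM of each factor in every library, ordered by log2 fold change, with low glucose in blue and high glucose in red; symbols give the replicate number and black bars the mean ± SD of 4 libraries. Rfx6 and Mafa show no overlap between groups, Isl1 and Pax6 overlap by 1 library each, and Pdx1 and Nkx2-2 overlap widely.

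**Figure D3:**
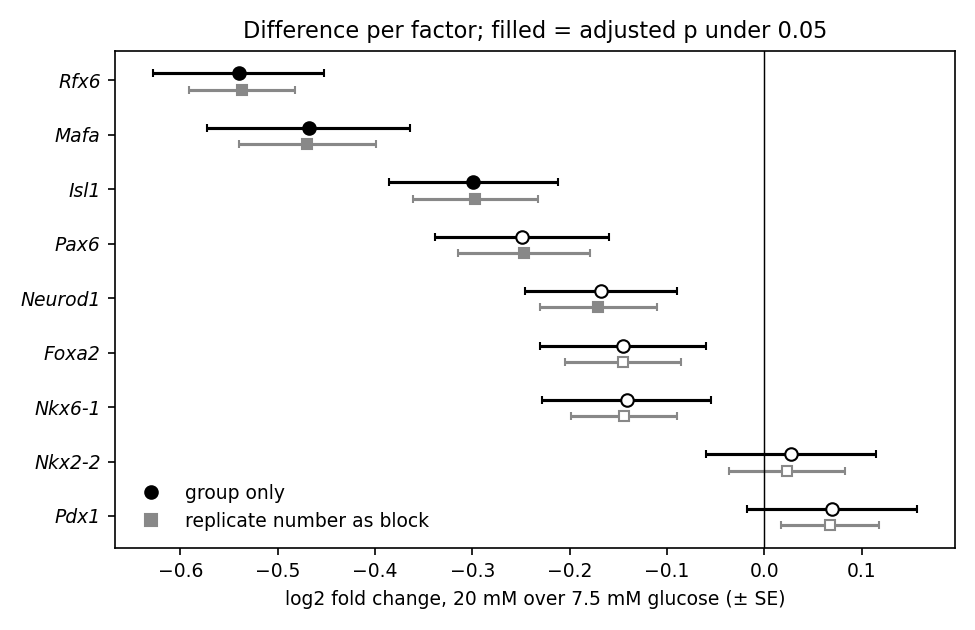
Log2 fold change of high over low glucose for each factor with its SE, from the fit with the group alone (black circles) and with the replicate number as a block (grey squares); filled symbols passed an adjusted p of 0.05. The estimates are nearly the same in both fits, from -0.54 for Rfx6 to 0.069 for Pdx1, and the block narrows the SE.

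The authors' deposited table gives the same order of the 9 factors from Rfx6 to Mafa, Isl1 and Pax6. In the authors' deposited table these 4 factors have log2 fold changes of -0.53, -0.46, -0.29 and -0.24 and adjusted p of 9.56e-07, 0.000146, 0.00786 and 0.0403. The remaining 5 have adjusted p of 0.153 to 0.855 in the authors' deposited table, in which 7.11% of all listed genes are lower at 0.05 and 8.11% higher. Its 1957 lower and 2233 higher genes are the same numbers as with DESeq2 here. There they make 11.6% and 13.3% of the 16831 genes with an adjusted p. The deposited comparison is therefore not independent of the DESeq2 alternative.

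Ratios within a library do not depend on how libraries are scaled, so each factor was set against Pdx1, whose levels overlapped between the groups. Pdx1 was lower in high glucose in 0 of 4 same-number pairs, however, with log2 differences of 0.028 to 0.116. A higher denominator in high glucose by itself lowers every ratio there. The FPKM of Mafa was 3.87 to 4.64 times that of Pdx1 in high glucose and 5.40 to 7.33 times in low glucose. The ratio of Rfx6 to Pdx1 was 0.185 to 0.225 in high and 0.292 to 0.345 in low glucose, and that of Pax6 0.234 to 0.278 and 0.299 to 0.342. These 3 of the 8 ratios were lower without overlap, while 14.0% of the tested genes other than Pdx1 had a lower ratio to Pdx1 without overlap and 8.32% a higher one. In CPM the shares of all genes without overlap were 13.6% lower and 13.7% higher, and Pax6 overlapped between the groups. The ratio of Isl1 was 0.266 to 0.377 in high and 0.373 to 0.458 in low glucose, overlapping narrowly. That of Nkx6-1 was 1.45 to 1.69 and 1.69 to 1.89, with high glucose replicate 2 just above low glucose replicate 1. For Nkx2-2 the ranges of 0.523 to 0.676 and 0.534 to 0.632 coincided. Of the summed FPKM of the 9 factors, Mafa held 46.3% ± 1.397 in high and 52.3% ± 2.61 in low glucose, and Pdx1 11.0% ± 0.687 and 8.57% ± 0.733. Shares of a sum are linked, so a smaller Mafa share enlarges the others. Nkx6-1 (17.1% and 15.4%), Neurod1 (6.59% and 6.04%) and Foxa2 (4.11% and 3.71%) also held more in high glucose, although their mean CPM were lower. Rfx6 held less (2.27% and 2.70%), and Isl1 was level (3.56% and 3.57%).

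**Figure D4:**
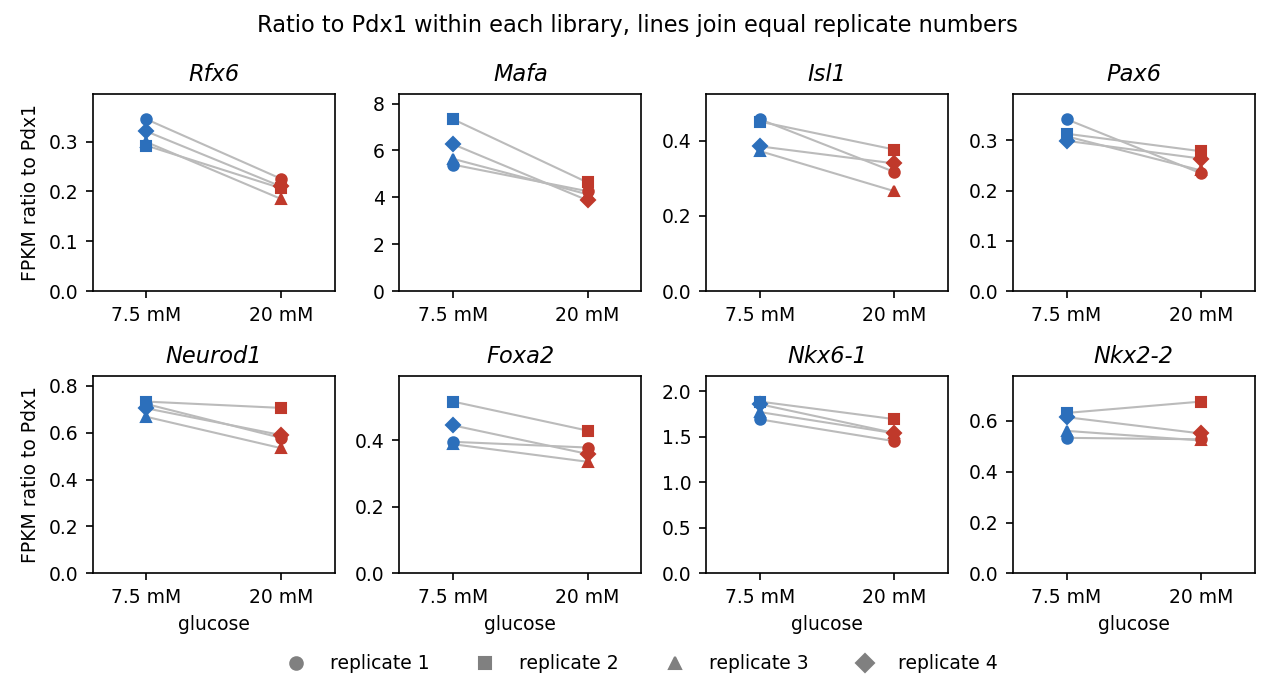
FPKM of each of the other 8 factors divided by that of Pdx1 in the same library, with low glucose in blue and high glucose in red; symbols give the replicate number and grey lines join equal numbers. The ratios of Rfx6, Mafa and Pax6 are lower in all high glucose libraries, and those of Nkx2-2 coincide.

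The factors' nearest relatives were read for comparison. Of 24 paralogs fixed by name, 18 were listed and 11 tested, of which 2 fell and 0 rose with edgeR, where 11.9% of all genes tested were lower and 13.1% higher. A count of 2 among 11 is near that share. At an unadjusted p under 0.05 also 0 were higher, limma-voom called 0 higher and DESeq2 called 1. Rfx1 fell from 17.6 ± 1.23 to 12.8 ± 0.315 CPM (adjusted p = 0.00312 in edgeR), and Mafk, a small MAF protein gene that lacks an activation domain, from 41.8 ± 0.355 to 34.97 ± 0.819 CPM (adjusted p = 0.0079). Foxa3, a relative of Foxa2, was at 16.2 ± 1.84 and 15.2 ± 2.70 CPM (adjusted p = 0.685 in edgeR).

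Other islet transcription factors moved in both directions. Of 28 tested members of a list of 32, 6 fell and 3 rose, beside 16.4% lower and 7.08% higher among annotated transcription factors and 11.9% and 13.1% among all genes, with a median log2 fold change of -0.18 against -0.01 over all genes tested and -0.10 over the annotated transcription factors. Myt1, a zinc finger factor of endocrine cells, fell from 88.1 ± 5.69 to 64.5 ± 5.53 CPM and Foxo1, a forkhead factor restrained by insulin signalling, from 82.5 ± 6.08 to 62.8 ± 3.21 CPM. Tshz1, a regulator linked to β-cell maturity, fell from 240.4 ± 36.1 to 165 ± 7.84 CPM, and Mlxipl, the ChREBP gene, fell 2.24-fold. Etv1, an ETS factor, rose from 67.6 ± 7.06 to 123 ± 5.87 CPM, Npas4, an activity-dependent factor, from 0.913 ± 0.267 to 2.71 ± 0.752 CPM, and Bach2 from 0.909 ± 0.245 to 2.13 ± 0.785 CPM. Bach2 had the highest adjusted p of these 7 genes, 0.0206 in edgeR. Its call ended when replicate 3 or 4 of high glucose (0.0636 and 0.0666) or replicate 1 or 3 of low glucose (0.0570 and 0.0646) was left out. With the replicate block 10 fell and 5 rose, beside 18.5% and 18.9% of all genes, and 10 also fell when low glucose replicate 2 was left out, beside 15.6%.

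Factors of other islet cell types gave 0 calls among 7 with edgeR, where 11.9% of all genes tested were lower and 13.1% higher. There was 1 at an unadjusted p under 0.05, and 1 call with DESeq2, library size alone, the replicate block or low glucose replicate 3 left out. With only 7 genes, such counts cannot show that these factors stayed unchanged. With limma-voom there were also 0 calls. Of 12 tested progenitor and exocrine factors, 1 rose and 1 fell, near the shares over all genes, and 3 rose with the replicate block, beside 18.9% of all genes higher. The median log2 fold change of these 12 was 0.45, with 3 below 0, against a median of -0.01 over all genes tested. Bhlha15, a factor of secretory cells including acinar cells, rose from 51.4 ± 4.06 to 103.8 ± 5.90 CPM (adjusted p = 1.36e-05 in edgeR). For the acinar markers, whose sums are given above, the median log2 difference was 0.65 and 0 of 14 tested genes passed without the block, but 9 were higher with it. Their part in the rise of Bhlha15 was not tested.

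Among 24 genes listed as cofactors of these factors, 6 fell and 3 rose, beside 11.9% lower and 13.1% higher among all genes. The count that rose is near that share. The median log2 difference was -0.23, against -0.01 over all genes tested. Tle3, a Groucho corepressor, fell from 177 ± 15.4 to 109.9 ± 13.7 CPM, Crtc2, a CREB coactivator, from 47.5 ± 2.48 to 36.1 ± 1.81 CPM, and Pcif1, known as an mRNA cap methyltransferase that binds RNA polymerase II, from 71.9 ± 4.69 to 54.7 ± 2.16 CPM. Ssbp3, a partner of the LIM-domain binding protein LDB1, fell from 94.6 ± 2.49 to 77.2 ± 3.20 CPM (adjusted p = 0.00557 in edgeR). Ldb1, which bridges ISL1 to other factors and was singled out after its values were seen, fell from 84.8 ± 6.87 to 70.2 ± 3.40 CPM (adjusted p = 0.0227). Tle1, another Groucho gene, rose from 43.8 ± 3.99 to 58.4 ± 2.93 CPM, Dnmt1, a DNA methyltransferase, from 40.9 ± 3.26 to 54.0 ± 6.83 CPM, and Men1, the menin gene, from 53.3 ± 1.67 to 63.9 ± 4.202 CPM. Dnmt1 and Men1 lost their calls with library size alone (adjusted p 0.0816 and 0.0667), and Men1 also when replicate 3 of high glucose (0.0554) or replicate 1 of low glucose (0.0567) was left out. With the replicate block 16 cofactors fell, beside 18.5% of all genes, and 14 without low glucose replicate 2, beside 15.6%.

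Of 30 genes of β-cell function, 12 fell and 8 rose, beside 11.9% and 13.1% of all genes. The median log2 difference was -0.14, against -0.01 over all genes tested. With the replicate block 13 fell and 11 rose, beside 18.5% and 18.9% of all genes. Those with the smallest adjusted p among the genes that fell were Trpm5, a cation channel gene, Pcx, which encodes pyruvate carboxylase, Nnat, an imprinted gene of the insulin secretory pathway, and Ucn3, a peptide of mature β cells. Pcx fell from 231 ± 8.001 to 142 ± 13.9 CPM and Nnat from 30.4 ± 5.17 to 16.7 ± 1.37 CPM. Ptprn, Pcsk1, G6pc2 and Syt4 led the genes that rose. Pcsk1, which encodes a proinsulin convertase, rose from 698 ± 45.2 to 1538 ± 81.5 CPM and Syt4, a synaptotagmin gene, from 174 ± 9.19 to 260.1 ± 25.3 CPM. Ucn3 had the highest adjusted p of these 8, 0.000829 in edgeR.

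**Figure D5:**
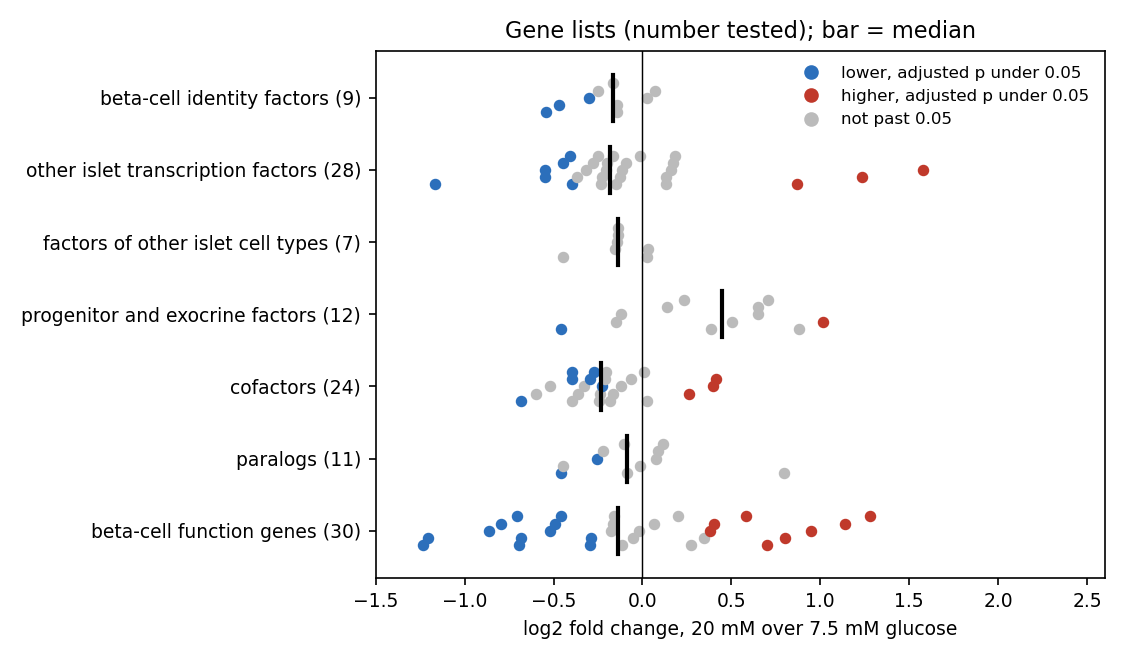
Log2 fold change of high over low glucose for every tested gene of the 7 lists, with blue points lower and red points higher at an adjusted p of 0.05 and black bars at list medians. The median is -0.17 for the 9 identity factors, which all lie between -0.54 and 0.069, whereas the function genes spread widely to both sides. Over the annotated transcription factors tested the median is -0.10, and over all genes tested -0.01.

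The genes whose profile over the 8 libraries lay nearest to that of Rfx6 included Acsl3 and Plcg1, with root-mean-square differences of 0.0527 and 0.0646 in centred log2 CPM. Those nearest to Mafa were Prkar1b (0.0604), Svip (0.0612) and C030006K11Rik (0.0661), and those nearest to Isl1 were Plpbp (0.0452), Ppp2r3d (0.0498) and Hsf1 (0.0600). The search ran over 9273 genes with a mean of at least 10 CPM, and likeness over 8 libraries of 2 groups is a description only.

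Reads of some factors could be shared with genes that overlap them, since the strand setting is not given in the sources used here. Pdx1 overlaps Plut, an antisense RNA gene, in its gene body but in 0 exonic bases of GENCODE M21, and Plut was at 41.6 to 60.8 CPM in high and 42.1 to 45.3 CPM in low glucose. Pax6 and Pax6os1 overlap without shared exonic bases. Pax6os1 was at 7.84 to 10.9 and 11.0 to 15.1 CPM, with adjusted p = 0.0598 in edgeR. Neurod1 shares 201 of its 2729 exonic bases with Cerkl on the same strand, which was at 14.6 to 20.1 and 13.6 to 19.1 CPM, and 154 with Gm26755, which was below 0.3 CPM. Nkx2-2 shares 278 exonic bases with Nkx2-2os, which was below 0.1 CPM. Of Nkx2-2 and 6430503K07Rik, an antisense gene at 4.42 to 5.09 and 4.80 to 8.27 CPM, no exonic bases are shared. Rfx6, Mafa, Isl1, Foxa2 and Nkx6-1 overlap no listed gene. Of 37 other genes chosen from the lists and nearest profiles, 11 overlap another tested gene (Trpm5, Pcx, Nnat, Pcif1, Rfx1, Mafk, Acsl3, Plcg1, Prkar1b, C030006K11Rik and Ldb1), so their values are uncertain.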

How the data were processed

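The 9 factors and all gene lists were chosen with earlier results of these data known. Per the submitters' processing notes, STAR 2.5, HTSeq 2 and DESeq2 were used with mm10 (GRCm38), and a NEBNext Ultra RNA kit was used per the labels' protocols. Annotation release and strand setting: not given in the sources used here. The authors' deposited table holds whole-number read counts per gene and library, not normalized. The deposited signal is each count over a size factor, 1 for each library. The deposited FPKM is each count over listed gene length and over a divisor set per library. That divisor is not the library's total count, being 2.72e+07 against 24949515 in low glucose replicate 1. The authors' own comparison is also deposited, as log2 differences and p-values.

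The test was edgeR 4.0.16 under R 4.3.3: TMM scaling, genes kept by filterByExpr (minimum count 10, minimum total 15), a quasi-likelihood F test with the group as only term, and Benjamini-Hochberg adjustment over 15442 genes, calls being made at 0.05. SE is the absolute log2 difference over the root of F, and 95% intervals use the test's degrees of freedom. CPM use the TMM-adjusted library size. At this depth 3 counts correspond to 0.114 to 0.160 CPM, which covers counting error only. Profiles were compared as log2 CPM with a prior count of 2. The procedure was tested on simulated data. Alternatives were DESeq2 1.42.0, limma-voom (limma 3.58.1), other scalings, no filter, an acinar covariate, the replicate block and each library left out. Named are the 9 factors, up to 4 passing members per list and direction with the smallest adjusted p, paralogs with values, the most abundant cell type markers, and the 3 nearest profiles of each factor that passed. A few genes that this rule selects are not reported here.

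The most similar libraries had a chi-square per gene of 12.9, so no library was a copy. Replicate numbers 1 to 4 occur in each group, and the labels leave their meaning unsaid. Deviations from the group means correlated over 15442 genes within same-number pairs 1 to 4 at 0.101, 0.449, 0.404 and 0.475. All were above 0.1, pair 1 barely. Between unequal numbers the correlations ran from -0.367 to 0.207, the highest being high glucose replicate 4 with low glucose replicate 1. Pair 1 is thus not set apart from unequal numbers. Blocked values are given where they change a call of an identity factor or a list's count by over 1.5 times. They are also given for the β-cell function genes. This pairing is read from the data, not from the design.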

Additional observations from a re-analysis of the deposited data

Results flagged for a closer look

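Among 74 groups of 4 libraries checked, 1 had a library set far from the other 3, and chance gives about 1 in 20. Ssbp3 was at 98.3 CPM in low glucose replicate 3, whereas the other low glucose libraries lay between 93.2 and 93.4 CPM. No identity factor had such a library.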

How the results depend on the processing

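Directions of Rfx6, Mafa, Isl1, Pax6, Neurod1, Foxa2 and Nkx6-1 held under all 16 alternatives. With library size alone, which shifted the median of all genes by -0.08 (log2) and made 37.8% of calls higher rather than 52.5%, Pdx1 turned to -0.015 and Nkx2-2 to -0.056, 6 identity factors were lower (6 changed), 1 factor of other islet cell types was lower and 1 cofactor higher. Nkx2-2 also turned without high glucose replicate 2 (-0.034) and without low glucose replicate 1 (-0.011), its range with 1 library left out being -0.034 to 0.076. With the replicate block, 5 identity factors were lower (5 changed), 2862 genes were lower against 1831, 10 other islet factors fell and 5 rose, 1 factor of other islet cell types fell, 3 progenitor and exocrine factors rose and 16 cofactors fell. With DESeq2, 1 factor of other islet cell types was lower and 1 paralog higher. Leaving out 1 library gave 2 to 4 identity factors lower and 0 higher, 3015 to 5132 genes changed, 5 to 10 other islet factors lower, 0 to 1 factor of other islet cell types lower and 5 to 14 cofactors lower. Beyond Pax6 and Neurod1, the block changed no call of an identity factor. The cause of these shifts was not tested. With an SE of 0.09 for Pdx1 and Nkx2-2 (log2), differences of that size were not detectable.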
